A study of Mus musculus with 12 samples.

Results

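The 10 genes described here, Col1a1, Col1a2, Col3a1, Col4a1, Acta2, Tgfb1, Timp1, Lum, Dpt and Lrat, are the fibrillar and basement membrane collagens, matrix regulators and stellate cell genes that are commonly followed in liver fibrosis. They were taken by gene name from 22170 gene names in a liver transcriptome of mice, and the deposited FPKM values (fragments counted per unit of transcript length and of library size) of all transcripts under each name were summed in every liver. All 10 were present, and all 10 reached the average of 0.5 FPKM across livers that was required for testing, as did 11566 names in all. The livers came from male C57BL/6J mice aged 21 weeks, housed 1 to a cage and fed for 16 weeks. The ND group received a normal diet and the other groups a high-fat diet, alone (HFD), with 1.5% (w/w) of an ethanol extract of chrysanthemum leaf (CLE), or with 0.003% (w/w) luteolin (LU), a flavone. Each group had 3 sequenced livers, which the study's methods call representative of their group and for which the labels give no genetic modification.

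In the liver, hepatic stellate cells lie between hepatocytes and the sinusoidal endothelium and store vitamin A as retinyl esters. On injury they lose these stores, become myofibroblasts that contain smooth muscle actin, and secrete fibrillar collagen, a change that transforming growth factor beta promotes. Portal fibroblasts are a further source of matrix, and TIMP proteins restrain the metalloproteinases that degrade it. Because whole liver was sequenced, more cells of a type and more RNA per cell cannot be told apart.

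The HFD livers had higher levels of the fibrillar collagen genes Col3a1, Col1a1 and Col1a2 and of the retinol esterifying gene Lrat than the ND livers, by 4.10-, 5.39-, 2.91- and 1.75-fold between the group means. Levels of Acta2, Tgfb1, Lum and Dpt overlapped between the ND and HFD groups. Neither supplement gave a called difference from HFD in any of the 10 genes with all livers included. The CLE group held a liver, mouse 2, with the highest level of 7 of the 10 genes among all 12 livers. Without mouse 2, set aside for its levels of these same genes, Col3a1 and Lrat were lower in CLE than in HFD.

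CLE mouse 2 stood apart in the levels themselves. It was the highest of the 12 livers for Col1a1, Col1a2, Col3a1, Col4a1, Timp1, Lum and Lrat, whereas over all 11566 tested genes this liver was the highest for 7.38%. Its level was 4.84 times the mean of CLE mice 4 and 11 for Timp1, 3.88 times for Col1a1, 3.33 times for Col3a1, 2.61 times for Col1a2 and 1.75 times for Col4a1. For Acta2 and Tgfb1 the ratios were 0.901 and 0.969. In lists of related genes, this liver was highest for 11 of 26 other matrix protein genes and 11 of 27 stellate cell markers. It was also highest for 4 of 14 other collagens, 5 of 16 genes that process collagen and 6 of 19 of matrix breakdown. For the TGF-beta pathway and retinoid handling the counts were 3 of 24 and 0 of 15. The summed FPKM of 12 macrophage and Kupffer cell markers was 322 in CLE mouse 2, 211 in CLE mouse 4 and 283 in CLE mouse 11. The part of these cells in the collagen values was not tested. The comparisons of the 10 genes that involve the CLE group are therefore given with and without this liver.

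**Figure D1:**
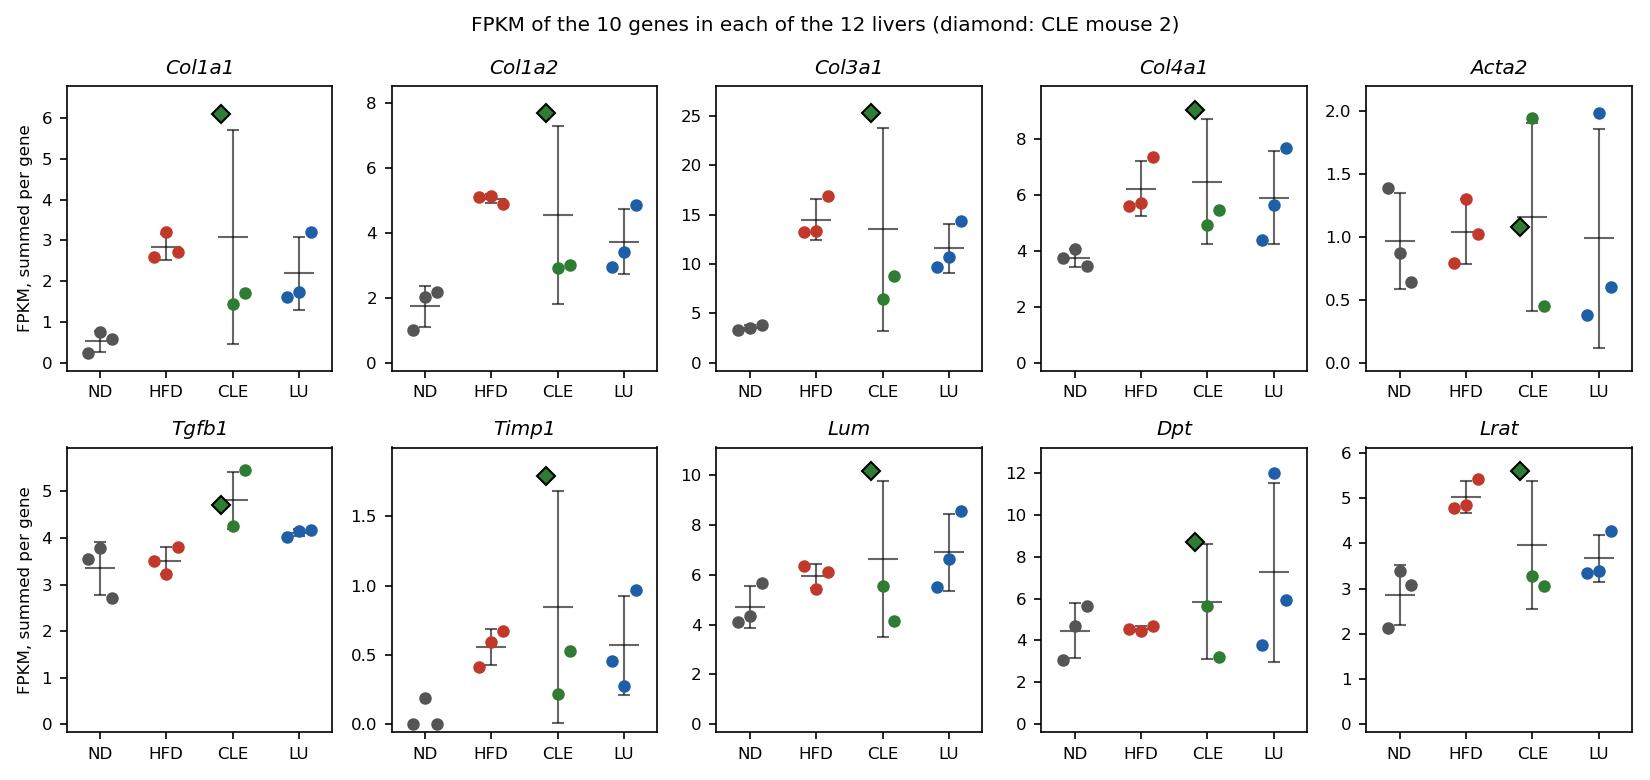
Summed FPKM (vertical axes, linear, including 0) of the 10 genes by diet group (horizontal axes). Points are single livers, bars the mean ± SD of 3 livers (not drawn for Timp1 in ND, where 2 livers were listed at 0), and the diamond is CLE mouse 2, which is the highest point for 7 of the 10 genes.

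Of the 3 fibrillar collagen genes among the 10, Col3a1, which encodes the chain of type III collagen, had the highest level per length and the largest difference between the diets on the log2(FPKM + 1) scale, whereas the ratio of the means was largest for Col1a1. On GRCm38 the gene spans chr1:45311538-45349706 on the forward strand. Its level was 3.29, 3.53 and 3.80 FPKM in ND mice 2, 3 and 4, and 13.2, 13.4 and 16.9 FPKM in HFD mice 12, 15 and 18. The lowest HFD liver thus lay well above the highest ND liver, with means of 3.54 ± 0.255 and 14.5 ± 2.07 FPKM (SD, n = 3). In limma the difference on the log2(FPKM + 1) scale was 1.77 (SE 0.34, adjusted p = 0.00587).

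Col1a1 and Col1a2 encode the chains that assemble into type I collagen, the main collagen of scar tissue. Col1a1 (chr11:94936224-94953042, forward strand) was measured at 0.238, 0.749 and 0.591 FPKM in ND and at 2.59, 3.20 and 2.72 FPKM in HFD. Col1a2 (chr6:4504814-4541544, forward strand) was measured at 1.01, 2.01 and 2.18 FPKM in ND and at 5.10, 5.13 and 4.88 FPKM in HFD. For both genes the ND and HFD livers did not overlap, and ND mouse 2 was the lowest liver of all. The log2 differences were 1.34 (SE 0.33, adjusted p = 0.0192) for Col1a1 and 1.17 (SE 0.27, adjusted p = 0.0161) for Col1a2. The ratio of Col1a1 to Col1a2 was 0.293 ± 0.0717 in ND, 0.562 ± 0.0576 in HFD, 0.621 ± 0.155 in CLE and 0.575 ± 0.0807 in LU (SD, n = 3), so that Col1a2 exceeded Col1a1 per length in every liver.

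Lrat (lecithin retinol acyltransferase, chr3:82892579-82903973, reverse strand) encodes the enzyme that forms the retinyl esters stellate cells store. Its level was 2.12, 3.39 and 3.08 FPKM in ND and 4.78, 4.85 and 5.43 FPKM in HFD, again without overlap. The log2 difference was 0.65 (SE 0.18, adjusted p = 0.0355). Only 1 transcript stood behind the Lrat value, whereas the sums for the collagens pooled 6 to 16 transcripts, known and assembled.

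Together 4 of the 10 genes were called higher and 0 lower in HFD than in ND at an adjusted p of at most 0.05, against 9.99% higher and 2.11% lower of all tested genes. The median log2 difference was 0.58 over the 10 genes and 0.11 over all tested genes. Every HFD liver exceeded every ND liver for 6 of the 10 genes, a pattern shown by 29.1% of all tested genes. Col3a1 was called whichever liver was left out. The other calls depended on single livers. Leaving out ND mouse 2 or HFD mouse 12 left Col3a1 as the only call, HFD mouse 15 or 18 left 2 calls, and ND mouse 4 left 3. Leaving out CLE mouse 2, which enters through the shared estimate of the spread, gave 6 calls, with Col4a1 (adjusted p = 0.0324) and Timp1 (adjusted p = 0.0442) added. That fit called 13.5% of all tested genes in either direction. Scaling by median-of-ratios size factors, which moved the median of all genes from 0.11 to -0.01, took the Lrat call away (log2 difference 0.53, adjusted p = 0.069).

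**Figure D2:**
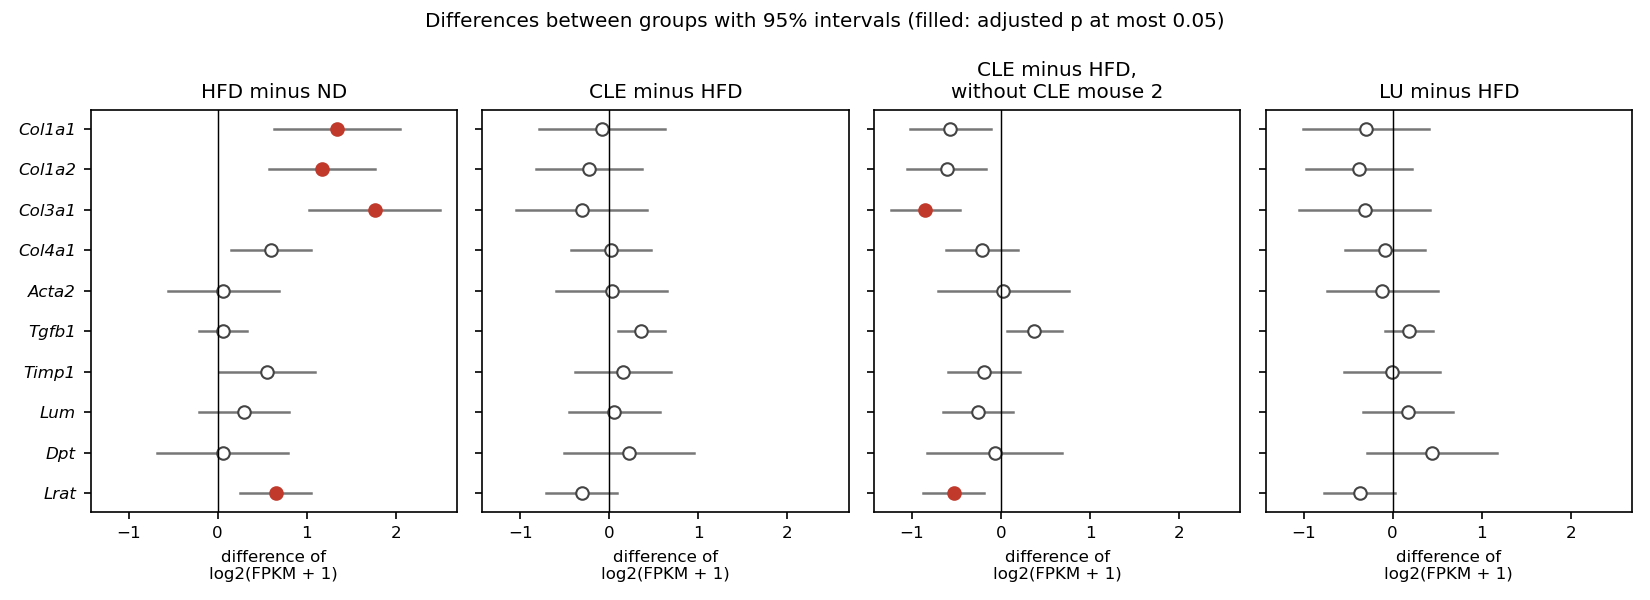
Differences of log2(FPKM + 1) between groups (horizontal axes) for the 10 genes (vertical axis) in limma, with 95% intervals as lines and filled points for an adjusted p of at most 0.05. The filled points are Col1a1, Col1a2, Col3a1 and Lrat for HFD minus ND, Col3a1 and Lrat for CLE minus HFD without CLE mouse 2, and no gene for CLE minus HFD with all livers or LU minus HFD.

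Col3a1 and Lrat were called in limma between ND and HFD and, without CLE mouse 2, between CLE and HFD. With all livers they were not called between CLE and HFD (limma, adjusted p = 0.564 and 0.275). Mouse 2 was set aside for its high levels of these same genes. The sequences before the starts of these 2 genes are shown on that basis, which is no support for a lower level in CLE. They are the 250 bases upstream of the RefSeq start on GRCm38.p6, written from the upstream end toward the start on the strand of the gene, with capitals for matches, on either strand, to TATAAA (an element of many core promoters), CCAAT (a common promoter element), CAGAC (the core of the element that SMAD proteins bind) and GGGCGG (the element that SP1 binds).
Col3a1 (chr1:45311288-45311537, forward strand): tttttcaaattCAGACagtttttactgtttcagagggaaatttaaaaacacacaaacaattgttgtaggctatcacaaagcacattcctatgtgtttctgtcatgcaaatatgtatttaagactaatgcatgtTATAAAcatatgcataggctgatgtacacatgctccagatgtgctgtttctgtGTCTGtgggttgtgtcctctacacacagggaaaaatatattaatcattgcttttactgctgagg
Lrat (chr3:82903975-82904224, reverse strand): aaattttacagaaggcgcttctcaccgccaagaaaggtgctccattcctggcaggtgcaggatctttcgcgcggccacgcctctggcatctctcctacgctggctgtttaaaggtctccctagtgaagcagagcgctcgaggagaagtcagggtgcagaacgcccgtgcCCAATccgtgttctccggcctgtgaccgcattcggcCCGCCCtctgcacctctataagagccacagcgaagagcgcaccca
The Col3a1 window held 1 TATAAA, from 117 to 112 bases before the start, and CAGAC on both strands, in 35.2% G and C and with 0 CG dinucleotides. The Lrat window held 1 CCAAT, from 81 to 77 bases before the start, and 1 GGGCGG on the opposite strand, in 59.2% G and C with 18 CG dinucleotides. The windows shared none of these motifs as exact matches, and near matches, such as tataag in the Lrat window, were not counted. RefSeq windows were found for 8 of the 10 genes. Among these 8, TATAAA occurred in the 250 bases of 1 (12.4% of 32817 windows of the same length), CCAAT in 4 (33.8%), CAGAC in 3 (42.2%) and GGGCGG in 4 (32.7%). Exact matches to the consensus of the CArG box of smooth muscle genes were found in 0 of the 8 and in 1.47% of all windows. Near matches were not counted, so this does not show that the Acta2 window lacks such an element. These are matches of letters only.

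Col4a1 encodes a chain of type IV collagen, the collagen of basement membranes, and lies head to head with Col4a2 on chromosome 8 (Col4a1 at chr8:11198423-11312826, reverse strand). It was measured at 3.73, 4.07 and 3.45 FPKM in ND and at 5.60, 5.71 and 7.38 FPKM in HFD. Although the groups did not overlap, the log2 difference of 0.60 (SE 0.21, adjusted p = 0.0791) was not called. Its partner Col4a2, at 1.72, 2.15 and 1.52 FPKM in ND and 3.44, 3.55 and 4.89 FPKM in HFD, was called higher (log2 difference 0.82, SE 0.18, adjusted p = 0.0118). The ratio of Col4a1 to Col4a2 was 2.11 ± 0.200 in ND and 1.58 ± 0.0648 in HFD (SD, n = 3).

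Timp1 encodes an inhibitor of matrix metalloproteinases. It was listed at 0 in ND mice 2 and 4 and at 0.186 FPKM in ND mouse 3, and it reached 0.414, 0.591 and 0.669 FPKM in HFD. With a mean of 0.509 FPKM over the 12 livers, Timp1 lay just above the filter, and 0.199% of tested genes had a lower mean. The difference of 0.55 on the log2(FPKM + 1) scale (SE 0.25, adjusted p = 0.172) was not called, while a pseudocount of 0.1 in place of 1 gave 2.19 and an adjusted p of 0.035. A listed 0 may be a failed estimate in these files, since Alb, the hepatocyte albumin gene, was itself listed at 0 in 11 of 12 livers. Timp1 (chrX:20870166-20874735, forward strand) lies within the span of Syn1 on the opposite strand. The library was unstranded, so reads there cannot be assigned to either gene by their strand.

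Lum and Dpt encode lumican and dermatopontin, small proteins that bind collagen fibrils in fibroblast matrix. Lum (chr10:97565128-97572703, forward strand) ranged from 4.10 to 5.67 FPKM in ND and from 5.41 to 6.35 FPKM in HFD. Dpt (chr1:164796644-164824266, forward strand) ranged from 3.06 to 5.65 FPKM in ND and from 4.46 to 4.71 FPKM in HFD. The diets overlapped for both genes, with log2 differences of 0.29 (95% interval -0.21 to 0.80, adjusted p = 0.456) for Lum and 0.06 (95% interval -0.68 to 0.79, adjusted p = 0.937) for Dpt.

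Acta2, the smooth muscle actin gene used as a marker of myofibroblasts, was among the lowest of the 10 genes. The gene (chr19:34241090-34255590, reverse strand) was measured at 1.39, 0.869 and 0.642 FPKM in ND, 0.792, 1.30 and 1.03 FPKM in HFD, 1.08, 1.95 and 0.450 FPKM in CLE and 0.377, 1.98 and 0.602 FPKM in LU. The highest liver was LU mouse 3 and the lowest LU mouse 2, so the spread within a group covered all group means, which lay between 0.967 and 1.16 FPKM. The log2 difference between HFD and ND was 0.06 (95% interval -0.56 to 0.68, adjusted p = 0.918).

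Tgfb1 encodes the cytokine transforming growth factor beta 1, which drives collagen synthesis in stellate cells. Its summed level was 3.54, 3.79 and 2.71 FPKM in ND, 3.51, 3.23 and 3.81 FPKM in HFD, 4.71, 4.25 and 5.47 FPKM in CLE and 4.03, 4.14 and 4.16 FPKM in LU. Every CLE and LU liver thus lay above every ND and HFD liver. Of all tested genes, 16.3% showed this for CLE over HFD, 13.1% for LU over HFD, 32.2% for CLE over ND and 29.45% for LU over ND. A part of the summed Tgfb1 level belonged to another gene. A transcript that GENCODE assigns to B9d2, which lies upstream of Tgfb1 (chr7:25687002-25705077, forward strand), was filed under the name Tgfb1 and made up 28.2% of the sum. This B9d2 transcript was at 0.679, 1.08 and 0.340 FPKM in ND, 0.957, 0.485 and 0.882 FPKM in HFD, 1.54, 1.40 and 2.37 FPKM in CLE and 1.24, 1.14 and 1.26 FPKM in LU. The main transcript of Tgfb1 itself was at 2.40, 1.83 and 1.50 FPKM in ND and 1.73, 1.94 and 2.32 FPKM in HFD. It was at 2.39, 2.17 and 2.06 FPKM in CLE, overlapping both. In LU it was at 2.35, 2.38 and 2.49 FPKM, overlapping ND but not HFD. When transcripts were summed by GENCODE gene instead of by the deposited name, the log2 difference of Tgfb1 between CLE and ND went from 0.42 (adjusted p = 0.0259) to 0.15 (adjusted p = 0.274), and that between CLE and HFD from 0.36 (adjusted p = 0.0834) to 0.11 (adjusted p = 0.479), with all CLE livers in both. Summed by the deposited name, the latter was 0.37 (adjusted p = 0.0835) without CLE mouse 2.

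The CLE group addressed whether the leaf extract altered the response to the high-fat diet. With all livers, 0 of the 10 genes were called between CLE and HFD by limma, against 6.03% of all tested genes in either direction, and 1 of the 10, Tgfb1, had an unadjusted p of at most 0.05. The levels in CLE mice 2, 4 and 11 were 25.3, 6.43 and 8.79 FPKM for Col3a1, 6.11, 1.45 and 1.71 FPKM for Col1a1, 7.70, 2.91 and 2.998 FPKM for Col1a2 and 5.60, 3.27 and 3.05 FPKM for Lrat. For these 4 genes mouse 2 lay above every HFD liver and mice 4 and 11 below every HFD liver. The share of all tested genes with mice 4 and 11 below HFD was not counted. The pattern therefore cannot be read as particular to these 4 genes. All CLE livers lay below all HFD livers for 14.97% of tested genes and for 0 of the 10. Timp1 showed 1.795, 0.217 and 0.526 FPKM, Col4a1 9.06, 4.94 and 5.45 FPKM, Lum 10.2, 5.55 and 4.16 FPKM and Dpt 8.71, 5.67 and 3.21 FPKM. The log2 differences with all livers had wide 95% intervals, from -1.05 to 0.42 around -0.31 for Col3a1 and from -0.79 to 0.62 around -0.08 for Col1a1.

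Without CLE mouse 2, Col3a1 was lower in CLE than in HFD by a log2 difference of -0.85 (SE 0.18, adjusted p = 0.0125) and Lrat by -0.53 (SE 0.16, adjusted p = 0.0368). These were 2 of the 10 genes, against 10.3% of all tested genes called lower in the same fit. Col1a2 (-0.61, adjusted p = 0.0549) and Col1a1 (-0.57, adjusted p = 0.0733) were not called. The means of CLE mice 4 and 11 were 7.61 FPKM for Col3a1, 1.58 FPKM for Col1a1, 2.95 FPKM for Col1a2 and 3.16 FPKM for Lrat, between the ND and HFD means for each gene. No label or note in the sources used here sets mouse 2 apart, and this fit rests on 2 CLE livers. Mouse 2 was set aside for its high levels of these same genes. Taking out the highest CLE value lowers both the CLE mean and the spread, so these p-values are no independent support for a lower level.

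The LU group addressed the same question for luteolin. The levels in LU mice 2, 3 and 8 were 9.65, 10.7 and 14.4 FPKM for Col3a1, 1.61, 1.74 and 3.22 FPKM for Col1a1, 2.93, 3.41 and 4.84 FPKM for Col1a2 and 3.35, 3.39 and 4.27 FPKM for Lrat. All LU livers lay below all HFD livers for Col1a2 and Lrat, 2 of the 10 genes, against 16.9% of all tested genes, whereas the groups overlapped for Col3a1 and Col1a1. In limma 0 of the 10 genes were called, against 1.03% of all tested genes, and 0 had an unadjusted p of at most 0.05. The log2 differences were -0.37 (95% interval -0.97 to 0.22, adjusted p = 0.451) for Col1a2, -0.37 (95% interval -0.77 to 0.03, adjusted p = 0.271) for Lrat and -0.31 (95% interval -1.05 to 0.42, adjusted p = 0.619) for Col3a1. The intervals include 0, and their lower ends exceeded in size the difference between HFD and ND for Lrat but not for Col1a2 and Col3a1. For the remaining genes, LU ranged from 4.39 to 7.69 FPKM for Col4a1, 0.276 to 0.971 FPKM for Timp1, 5.53 to 8.57 FPKM for Lum and 3.81 to 12.0 FPKM for Dpt, with LU mouse 3 the highest of all livers for Dpt.

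Both supplemented groups were also set against ND, which they share as a reference. In CLE 5 of the 10 genes were called higher than in ND, against 20.9% of all tested genes. They were Col3a1 (log2 difference 1.45, adjusted p = 0.011), Col1a1 (1.26, adjusted p = 0.0166), Col1a2 (0.94, adjusted p = 0.026), Col4a1 (0.62, adjusted p = 0.0419) and the summed Tgfb1. Without CLE mouse 2 the count was 3, with Col3a1 at 0.91 (adjusted p = 0.00437), Col1a1 at 0.77 (adjusted p = 0.0177) and the summed Tgfb1 at 0.43 (adjusted p = 0.0369). That fit called 31.8% of all tested genes in either direction. Leaving out ND mouse 2 gave 2 calls, ND mouse 4 gave 3, ND mouse 3, HFD mouse 12 or 15 or CLE mouse 11 gave 4, and CLE mouse 4 or LU mouse 8 gave 6. In LU 2 of the 10 genes were called higher than in ND, against 11.2% of all tested genes, namely Col3a1 (1.45, adjusted p = 0.0179) and Col1a1 (1.04, adjusted p = 0.049). This count was 0 without ND mouse 2 or LU mouse 8, 1 without ND mouse 3 or 4, LU mouse 2 or 3 or any HFD liver, 3 without CLE mouse 4 and 5 without CLE mouse 2. Of all tested genes, 21.6% were called in either direction without CLE mouse 4 and 18.5% without CLE mouse 2. Lrat was not called against ND in either group, with log2 differences of 0.34 (adjusted p = 0.169) in CLE, 0.12 (adjusted p = 0.571) in CLE without mouse 2 and 0.28 (adjusted p = 0.289) in LU. Its mean was 3.97 ± 1.41 FPKM in CLE and 3.67 ± 0.519 FPKM in LU (SD, n = 3).

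Between CLE and LU, given at doses that were not matched, 0 of the 10 genes were called and 0 had an unadjusted p of at most 0.05, in a comparison that called 0.00865% of all tested genes (508 of 11566 had an unadjusted p of at most 0.05). The log2 difference of CLE minus LU was 0.0018 (95% interval -0.73 to 0.74) for Col3a1, 0.22 (95% interval -0.49 to 0.92) for Col1a1 and 0.06 (95% interval -0.34 to 0.46) for Lrat. These values rested on CLE mouse 2. Without it the differences were -0.54 (95% interval -0.93 to -0.15) for Col3a1, -0.43 (95% interval -0.82 to -0.03) for Lum, -0.27 (95% interval -0.73 to 0.18) for Col1a1 and -0.16 (95% interval -0.50 to 0.18) for Lrat. In that fit 0 of the 10 genes were called, and 2 of the 10, Col3a1 (adjusted p = 0.425) and Lum (adjusted p = 0.45), had an unadjusted p of at most 0.05, as did 1217 of all 11566 tested genes. In all comparisons of CLE or LU with HFD or ND, 1 technical measure moved with the groups. The rank correlation between a gene's G and C content and its deviation in a library was negative in each ND and HFD library (-0.374 to -0.141) and positive in each CLE and LU library (0.16 to 0.479), so that this property and the supplements cannot be told apart.

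Across livers the genes fell into those that followed Col1a1 and those that did not. Pearson's r over the 12 livers, which share 4 groups and 1 FPKM scale, was 0.98 between Col1a1 and Col1a2, 0.97 between Col1a1 and Col3a1, 0.94 between Col1a1 and Timp1 and 0.94 between Col1a2 and Lrat. Around the group means the same pairs gave 0.96, 0.93, 0.94 and 0.95, values to which CLE mouse 2 contributed. Col1a1 and Lum gave 0.79, Col1a1 and Dpt 0.40, Col1a1 and Tgfb1 0.38, and Col1a1 and Acta2 -0.03. The plot of each gene against its own mean shows the same split by liver.

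**Figure D3:**
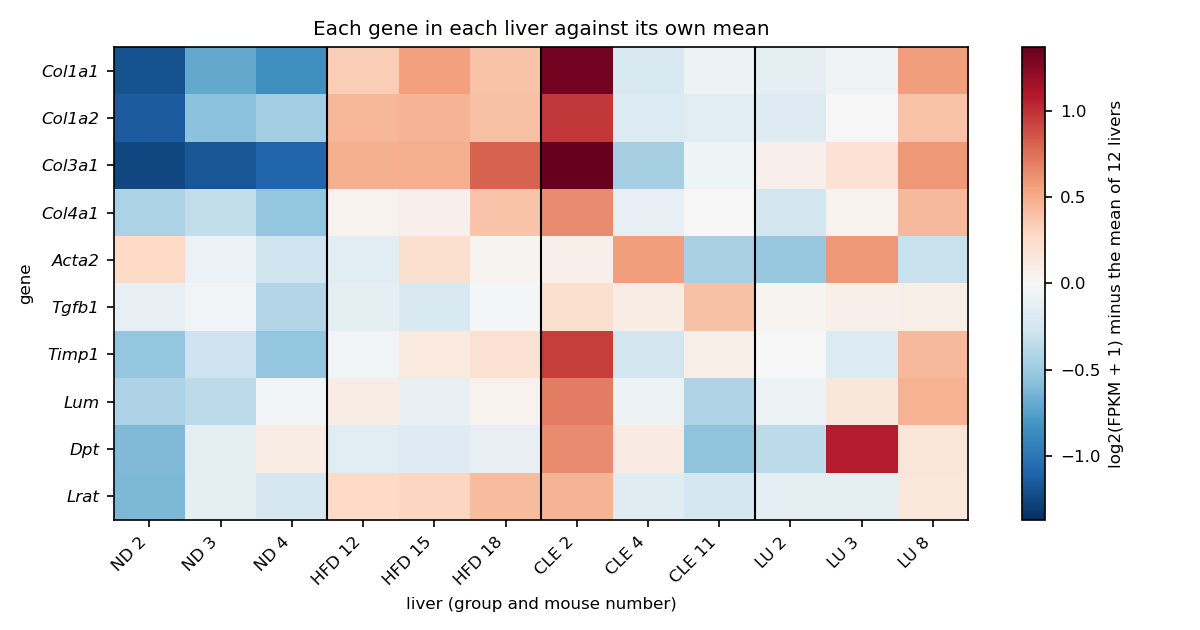
Difference of log2(FPKM + 1) from the mean of the 12 livers (color, red above and blue below) for each of the 10 genes (rows) in each liver (columns, by group and mouse number). CLE mouse 2 is above the mean for the collagens, Timp1, Lum, Dpt and Lrat, and the ND livers are below it for Col1a1, Col1a2, Col3a1 and Lrat.

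Among all tested genes, those most like Col1a1 by r were Col1a2, Sparc, Col3a1, Uap1l1 and Thbs2 (0.95 to 0.98). Sparc, a collagen-binding matrix protein gene, was on the lists of Col1a1, Col1a2 and Col3a1, with means of 12.3 ± 1.75 FPKM in ND, 26.8 ± 1.68 FPKM in HFD, 27.4 ± 9.73 FPKM in CLE and 23.7 ± 3.63 FPKM in LU (SD, n = 3). Col1a2 was followed by Col1a1, Loxl2, Sparc, Scd2 and Endod1, and Col3a1 by Sparc, Col1a1, Mcm2, Haus8 and Loxl2. Loxl2, a lysyl oxidase that crosslinks collagen, was also among the genes most like Lrat, as were Nid1, Col1a2 and Ttc39a. Timp1 was followed by Ms4a7, Slc45a4, Col1a1, Trem2 and Col4a1, of which Ms4a7 (r = 0.96) and Trem2 (r = 0.92) are macrophage genes. The genes most like Col4a1 were Cd2ap, Ttll1, Ano6, Uap1l1 and Tgm2, and those most like Lum were Cx3cr1, Sox4, Cpxm1, Art4 and Emp1. For Dpt they were Lpcat1, Mill2, Pygb, Mmrn2 and Pydc4, for Acta2 9430020K01Rik, Ppp1r16b, Lman2l, Hspa12b and Ptprb, and for the summed Tgfb1 Dnal4, Gmppb, Raly, Srm and Mrps2. The lists of Lum, Dpt, Acta2 and Tgfb1 held none of the other members.

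The wider matrix genes were described from lists of related genes, chosen with earlier results of these data known. Of all tested genes, 9.99% were called higher in HFD than in ND and 2.11% lower, with a median log2 difference of 0.11. Of the other collagens, 5 of 14 tested were higher in HFD than in ND and 0 lower, with a median log2 difference of 0.42. Col14a1, a collagen associated with fibrils, was measured at 7.29 ± 1.91 FPKM in ND and 16.2 ± 2.08 FPKM in HFD (SD, n = 3, log2 difference 1.07, adjusted p = 0.00341). Col4a2, Col16a1 and Col5a2 were called as well, and so was Col12a1, named after its values were seen. Of other matrix proteins, 8 of 26 were higher and 0 lower, with a median of 0.34. Postn (periostin) went from 1.96 ± 0.169 to 5.46 ± 0.758 FPKM, Bgn (biglycan) from 36.0 ± 6.07 to 62.2 ± 2.502 FPKM and Ecm1 from 63.5 ± 10.1 to 105.8 ± 25.0 FPKM (SD, n = 3), with adjusted p of 0.00231, 0.00213 and 0.0209. Without CLE mouse 2 these counts were 6 and 10, in a fit that called 13.5% of all tested genes in either direction.

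Of the genes that process and crosslink collagen, 6 of 16 were higher and 1 was lower in HFD. The shares of all tested genes were again 9.99% higher and 2.11% lower. Serpinh1, the chaperone of procollagen, was measured at 2.82 ± 0.623 FPKM in ND and 6.86 ± 0.343 FPKM in HFD (log2 difference 1.05, adjusted p = 0.0066), and the prolyl hydroxylase P4ha2 (0.85, adjusted p = 0.039) and the lysyl hydroxylase Plod1 (0.67, adjusted p = 0.00247) were also called higher. Bmp1, the procollagen C-proteinase, was lower (-0.57, adjusted p = 0.0139). Of the genes of matrix breakdown and its inhibitors, 4 of 19 were higher and 0 lower. Mmp12, the macrophage elastase, was at 0.361 ± 0.208 FPKM in ND and 4.79 ± 1.84 FPKM in HFD (2.04, adjusted p = 0.0375), and the metalloproteinases Mmp19 and Mmp15 were called with log2 differences of 1.01 and 0.58. Matrix-degrading enzymes were thus among the genes that rose.

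**Figure D4:**
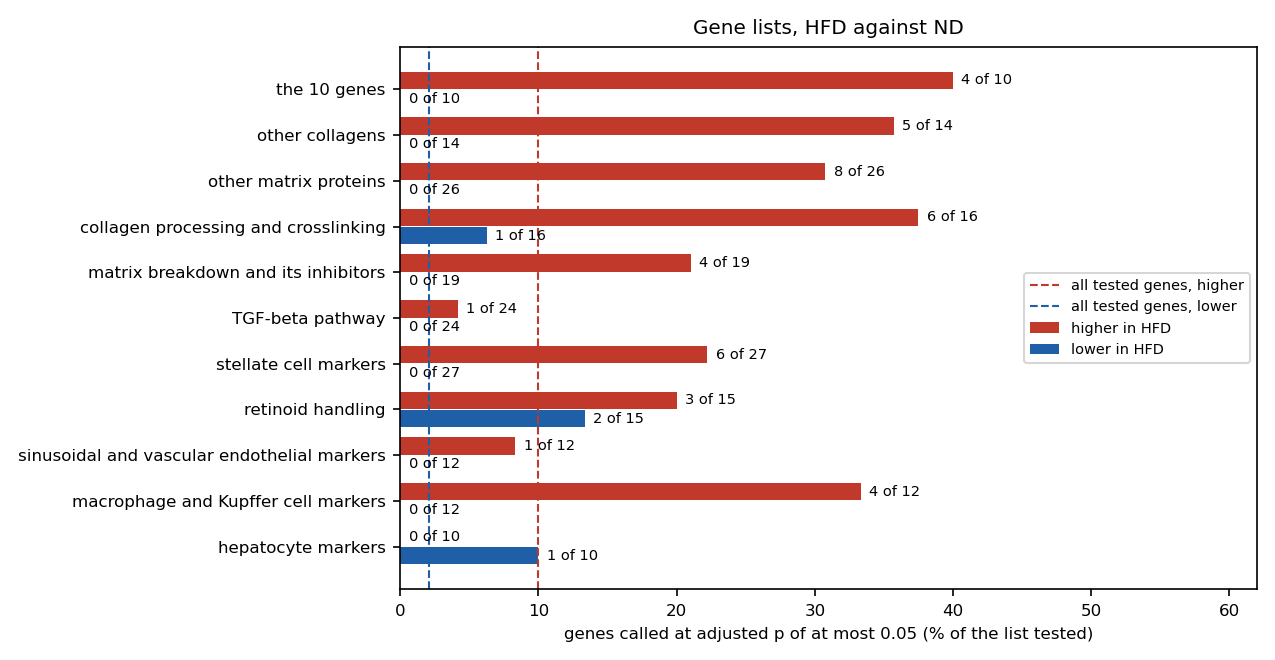
Share of the tested genes of each list (horizontal axis, %) called higher (red bars) or lower (blue bars) in HFD than in ND at an adjusted p of at most 0.05, for the 10 genes and lists with 10 or more tested genes. Dashed lines mark the shares over all tested genes, 9.99% higher and 2.11% lower, and 5 of 14 other collagens but 1 of 24 TGF-beta pathway genes were higher.

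Of the TGF-beta pathway, 1 of 24 genes was higher and 0 were lower, with a median of 0.25. Of all tested genes, 9.99% were higher and 2.11% lower, with a median of 0.11. The called pathway gene was Tgfbi, a matrix protein gene induced by the cytokine, at 12.0 ± 1.86 FPKM in ND and 22.8 ± 3.31 FPKM in HFD (log2 difference 0.87, adjusted p = 0.0103). Without CLE mouse 2 the count was 3. Of 27 stellate cell markers, 6 were higher and 0 lower, and 9 were higher without CLE mouse 2. The fit without this liver called 13.5% of all tested genes in either direction. Vim, which encodes the intermediate filament vimentin, was at 9.04 ± 1.08 FPKM in ND and 17.0 ± 1.58 FPKM in HFD (0.84, adjusted p = 0.00118). Bmp5 (0.64) and Steap4 (1.45) were also called. Neither Vim nor Steap4 is particular to stellate cells. Of 15 genes of retinoid handling, 3 were higher (Aldh1a1, Rara and Rdh10) and 2 lower (Pnpla3 and Bco1, the latter named after its values were seen), with a median of 0.0048. Aldh1a1, which oxidizes retinal to retinoic acid, was at 625 ± 64.2 FPKM in ND and 1378 ± 29.0 FPKM in HFD (1.14, adjusted p = 0.000222).

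Against HFD, these 7 lists together held 14 calls among 141 tested genes for CLE, where 6.03% of all tested genes were called, and 2 for LU, where 1.03% were. Between CLE and HFD they were 1 of 14 other collagens (Col13a1 higher), 0 of 26 other matrix proteins, 1 of 16 processing genes (Bmp1 higher), 1 of 19 breakdown genes (Mmp19 lower), 3 of 24 TGF-beta pathway genes (Smad6, Ltbp4 and Eng higher), 4 of 27 stellate cell markers (Adamtsl2, Lhx2 and Des higher, Bmp5 lower) and 4 of 15 retinoid genes (Aldh1a1 and Rdh10 lower, Rarg and Dgat1 higher). Mmp19 went from 17.2 ± 1.40 FPKM in HFD to 10.8 ± 2.28 FPKM in CLE (log2 difference -0.64, adjusted p = 0.0329), and Smad6, an inhibitor of signaling by receptors of this family, from 3.20 ± 0.399 to 5.95 ± 1.23 FPKM (0.71, adjusted p = 0.0197). Aldh1a1 was at 802 ± 109.9 FPKM in CLE (-0.79, adjusted p = 0.0151). Without CLE mouse 2 these differences were -0.70 for Mmp19 (adjusted p = 0.0179), 0.84 for Smad6 (adjusted p = 0.00629) and -0.84 for Aldh1a1 (adjusted p = 0.00817), and Des was no longer called (0.40, adjusted p = 0.0548). In the same fit 8.65% of all tested genes were called higher and 10.3% lower, and 32 of the 141 list genes were called. The calls without this liver among other collagens were 3 higher, those among other matrix proteins 1 higher and 2 lower, those among processing genes 2 higher and 1 lower, and those among breakdown genes 2 higher and 2 lower. The TGF-beta pathway had 3 higher and 3 lower, stellate cell markers 2 higher and 4 lower, and retinoid genes 3 higher and 4 lower. Between LU and HFD the calls were Mmp19 (-0.79, adjusted p = 0.0247) and Aldh1a1 (-0.83, adjusted p = 0.0137), both lower, at 9.57 ± 0.726 and 776 ± 83.7 FPKM in LU (SD, n = 3).

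Markers of some other liver cells also differed between the diets, where 9.99% of all tested genes were called higher in HFD and 2.11% lower. The fit without CLE mouse 2 called 13.5% in either direction. Of 12 macrophage and Kupffer cell markers 4 were higher in HFD and 0 lower (7 without CLE mouse 2), and their summed level was 155 to 182 FPKM in ND, 236 to 358 FPKM in HFD, 211 to 322 FPKM in CLE and 173 to 307 FPKM in LU, with 0 markers at 0 in every liver. Of the adipocyte markers 3 of 4 tested were higher, led by Cfd at 1.36 ± 0.409 FPKM in ND and 81.9 ± 22.4 FPKM in HFD (SD, n = 3). Their summed level, mostly that of Car3, was 504 to 932 FPKM in ND and 1559 to 2101 FPKM in HFD. The defining adipocyte genes were at or near 0 in ND, HFD and CLE and higher in LU. Adipoq was at 0 to 0.0806 FPKM in ND, 0 to 0.0369 FPKM in HFD, 0.0355 to 0.145 FPKM in CLE, and 0.759, 0.508 and 0.4999 FPKM in LU. Plin1 did not exceed 0.0274 FPKM in the ND, HFD and CLE livers and was at 0.338, 0.211 and 0.14 FPKM in LU, and Lep was listed at 0 in all livers but those of LU, where it was at 0.176, 0.139 and 0.187 FPKM. All 3 genes averaged under 0.5 FPKM and were not tested. Smooth muscle markers had 2 of 3 tested higher (Tagln and Mylk, 0.79 and 0.43), with sums of 19.7 to 24.2 FPKM in ND and 30.7 to 33.6 FPKM in HFD. Of those under the filter, Myh11, Cnn1, Actg2, Lmod1, Myocd and Pln overlapped between ND and HFD, and Synpo2 was higher in every HFD liver. Portal fibroblast and mesothelial markers had 2 of 6 higher (Krt8, which hepatocytes express too, and Entpd2), with sums of 90.6 to 103 FPKM in ND and 195 to 245 FPKM in HFD, of which Krt8 made up 68.8 to 84.1 and 165 to 215 FPKM. Thy1, a portal fibroblast marker, was at 0.554 to 0.707 FPKM in ND and 0.350 to 0.477 FPKM in HFD, and Wt1, a mesothelial marker, at 0.125 to 0.276 and 0.0413 to 0.122 FPKM. Cd34 and Gpm6a of the same list went the other way. Cd34 was at 0.476 to 0.492 FPKM in ND and 0.503 to 0.786 FPKM in HFD. Gpm6a was at 0.422 to 0.684 FPKM in ND and 0.6905 to 0.785 FPKM in HFD. Every HFD liver lay above every ND liver for 29.1% of all tested genes, and below for 7.44%. Endothelial markers had 1 of 12 higher (Stab2), cholangiocyte markers 0 of 4, lymphocyte markers 0 of 6 higher and 1 lower (Cd4), and hepatocyte markers 0 of 10 higher and 1 lower (Pck1). All 10 hepatocyte markers averaged over the required level, with sums of 14220 to 20540 FPKM in 11 livers and 36710 FPKM in LU mouse 3, the liver where Alb was not listed at 0 and was at 19850 FPKM. Alb passed only through that liver. The part of these cells in the values of the 10 genes was not tested.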

How the data were processed

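Liver mRNA libraries (unstranded TruSeq kit, paired-end) of 12 mice were sequenced by the authors. Per the submitters' processing notes, CASAVA 1.8.2, Bowtie2 2.2.3, TopHat2 2.0.12 and Cufflinks 2.2.1 were used. The authors deposited FPKM values for 152210 known and assembled transcripts, from an assembly over 30 samples according to the table. Counts and depth are unknown, so no counting interval is given. The genome build is not given in the sources used here, and 85.5% of 78786 known transcripts had the same start and end in GENCODE M21 (GRCm38), from which gene positions were taken. The columns named CLL were read as the CLE group through the sample titles.

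FPKM was summed per deposited gene name (6316 unnamed transcripts left out). All 12 livers entered 1 limma fit (limma 3.58.1, R 4.3.3, variance trend) on log2(FPKM + 1), with a coefficient per group, for genes averaging 0.5 FPKM or more. Fold changes on this scale understate low genes. P-values were two-sided and adjusted by the Benjamini-Hochberg method over 11566 genes, with calls at 0.05. The fit was tested on simulated data. Intervals are 95% intervals of the fit. The labels number the mice within groups and name no culture, litter or batch.

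Named genes were the 10 members in every liver, up to 4 called genes with the largest change per list and comparison, and the 5 genes with the highest Pearson's r to each member. Some genes named by this rule are not reported here. The members and lists were chosen with earlier results of these data known. Older symbols were matched through RefSeq synonyms (Bco1 as Bcmo1, for example). Promoter windows were taken from RefSeq (GRCm38.p6). Alternatives covered the pseudocount, filter, scaling, samples in the fit, variance trend, choice of transcript, GC correction, a replicate block and leaving out each liver, and sums by GENCODE gene were added after seeing the data.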

Additional observations from a re-analysis of the deposited data

How the results depend on the processing

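Of the 11 calls of a member in a comparison, all kept their direction except the summed Tgfb1 between CLE and ND, which was -0.012 with the GC content correction. Of 253 refits of these calls, 180 kept the call, 72 lost it and 1 reversed. Among uncalled values, 74 changed sign under an alternative, in 29 of the 60 pairs of member and comparison. The counts of members called moved as follows, and where an alternative tests fewer genes (a mean of at least 5 FPKM) the loss is by construction, while for the others the cause was not tested. For HFD against ND (4 called), a mean of at least 5 FPKM gave 1, the transcript with the highest mean 2, complete matches alone 2, no filter, either scaling or the GC content correction 3, a pseudocount of 0.1 5, and both groups fitted alone 6. For CLE against ND (5 called), the counts were 3 without a filter, 2 with a mean of at least 5 FPKM, 3 with median-of-ratios scaling, 2 with quantile normalization, 2 with both groups fitted alone, 1 with the top transcript, 3 with complete matches, 1 with the GC content correction, 4 with sums by GENCODE gene and 6 with a pseudocount of 0.1. For LU against ND (2 called), the count was 4 with a pseudocount of 0.1, 3 with both groups fitted alone, 1 without a filter, with a mean of at least 5 FPKM, with either scaling, with complete matches, with the GC content correction or with sums by GENCODE gene, and 0 with the top transcript. Leaving out 1 liver at a time gave 1 to 6 calls for HFD against ND, 0 to 2 for CLE against HFD, 2 to 6 for CLE against ND and 0 to 5 for LU against ND. The shares of all tested genes called in these fits were 5.67% to 14.4%, 0.242% to 18.9%, 13.8% to 31.8% and 5.53% to 21.6%. Alternatives without a left-out liver called 6.02% to 15.9% for HFD against ND, 9.17% to 30.5% for CLE against ND and 7.32% to 18.3% for LU against ND. For CLE against HFD, 0 members were called under the 11 alternatives with all livers, and for LU against HFD and CLE against LU 0 were called under every alternative run, including each left-out liver. A replicate block in a fit of the 2 groups gave 4 calls for CLE against ND and 2 for LU against ND, and the deviations of livers with the same number correlated between -0.259 and 0.183, and nothing in the labels says that the numbers pair the mice.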
